A study of Mus musculus with 29 samples.

Results

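The Ccl2 and Ccl7 chemokine cluster is a run of 5 genes on mouse chromosome 11 in the order Ccl2, Ccl7, Ccl11, Ccl12 and Ccl8. Its members were taken here as every peak and every chromatin state segment that reached into the mm9 interval chr11:81840000-81940000, a window of 100 kb. That gave 86 of 1190714 peaks from 26 lists, and 142 of 2070063 segments from 4 segmentations. Ccl2 lies near position 81849000, Ccl7 near 81859000, and the other genes of the run lie further along, up to 81931000. These positions are rounded, and peaks beyond Ccl7 were therefore placed by position and not assigned to a gene.

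The cells were RAW264.7, a macrophage-like mouse line established with Abelson murine leukaemia virus. They were left untreated, given lipopolysaccharide (LPS, the bacterial outer membrane component to which macrophages respond) at 100 ng/ml for 1 h or 4 h, given flavopiridol (an inhibitor of the elongation kinase CDK9) for 1 h, or given flavopiridol for 1 h and then LPS for 4 h. Chromatin immunoprecipitation and sequencing of H3K27me3, H3K27ac, H3K4me1, H3K4me3, H3K36me2, H3K36me3 and H3K79me2 covered untreated and LPS-treated cells, while flavopiridol lists exist for H3K4me1 and H3K36me2, and PU.1 was mapped in untreated cells. Each mark and condition had 1 library of 1 cell line, so every difference below sets a single library against another, with no replicate error and no test. Input libraries are listed for untreated cells and for LPS at 1 h and 4 h, and none is listed with flavopiridol. Read depth is unknown, and more marked chromatin cannot be told apart from better detection.

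The encoded proteins are secreted chemokines that recruit leukocytes. Ccl2 (monocyte chemoattractant protein 1) and Ccl7 draw monocytes through the receptor Ccr2, and Ccl12 acts on the same receptor in the mouse. Ccl11 (eotaxin) draws eosinophils through Ccr3, and mouse Ccl8 acts through Ccr8. In macrophages Ccl2 is a well known LPS-inducible gene. H3K4me1 marks enhancers and promoter flanks, H3K27ac active enhancers and promoters, H3K4me3 active promoters, and H3K27me3 chromatin under Polycomb repression. H3K36me2, H3K36me3 and H3K79me2 are found over transcribed genes and the first also over intergenic chromatin, and PU.1 is the transcription factor that opens macrophage enhancers.

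RefSeq promoter sequence was matched for Ccl12 and Ccl8. Both matched sequences are shown, with the core promoter element found in each. The 250 bases before each gene's start follow in build GRCm38.p6, plus strand, Ccl12 at chr11:82101595-82101844 and Ccl8 at chr11:82114935-82115184, with TATAAA in capitals. This build differs from that of the peaks, so the sequences could not be laid on the mm9 map.
Ccl12: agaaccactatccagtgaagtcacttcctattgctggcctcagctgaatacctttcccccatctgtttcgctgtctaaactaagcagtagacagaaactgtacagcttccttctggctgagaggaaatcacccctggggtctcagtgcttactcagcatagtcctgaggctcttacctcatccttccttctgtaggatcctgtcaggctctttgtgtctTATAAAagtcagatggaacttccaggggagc
Ccl8: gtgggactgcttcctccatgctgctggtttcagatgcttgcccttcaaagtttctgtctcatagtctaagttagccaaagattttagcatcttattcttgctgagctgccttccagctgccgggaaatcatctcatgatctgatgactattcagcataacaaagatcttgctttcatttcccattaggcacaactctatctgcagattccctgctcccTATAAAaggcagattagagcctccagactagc
TATAAA began 31 bases before the Ccl12 start and 32 bases before the Ccl8 start, and 12.4% of 32851 RefSeq promoters of this length held it on either strand. The other motifs searched on both strands, the NF-kB consensus (in 3.90% of promoters), GAGGAAGT for PU.1 (2.44%), TGANTCA for AP-1 (6.75%) and the interferon response element consensus (2.98%), had no match in these letters.

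In untreated cells most of the cluster lay under listed H3K27me3 peaks, with small islands of H3K4me1 and PU.1 and no peak of an active promoter or transcription mark. H3K27me3 covered 63.97 kb of the window, or 64.0%, against 13.7% of the genome. None of its peaks here passed a −log10 q of 5 in the authors' values, against 12.4% of the list. Such values may not describe the intervals of histone peaks. H3K4me1 covered 14.9 kb in 7 peaks, 14.9% of the window against 7.28% of the genome. H3K27ac, H3K4me3, H3K36me2, H3K36me3 and H3K79me2 had no peak in the window. The largest H3K27me3 peak, at 81849970 to 81885568, was 35599 bp wide and spanned the Ccl7 position. A second H3K27me3 peak ran from outside the window to 81847993, and between it and the wide one lay a gap of 1976 bp that held the Ccl2 position.

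**Figure D1:**
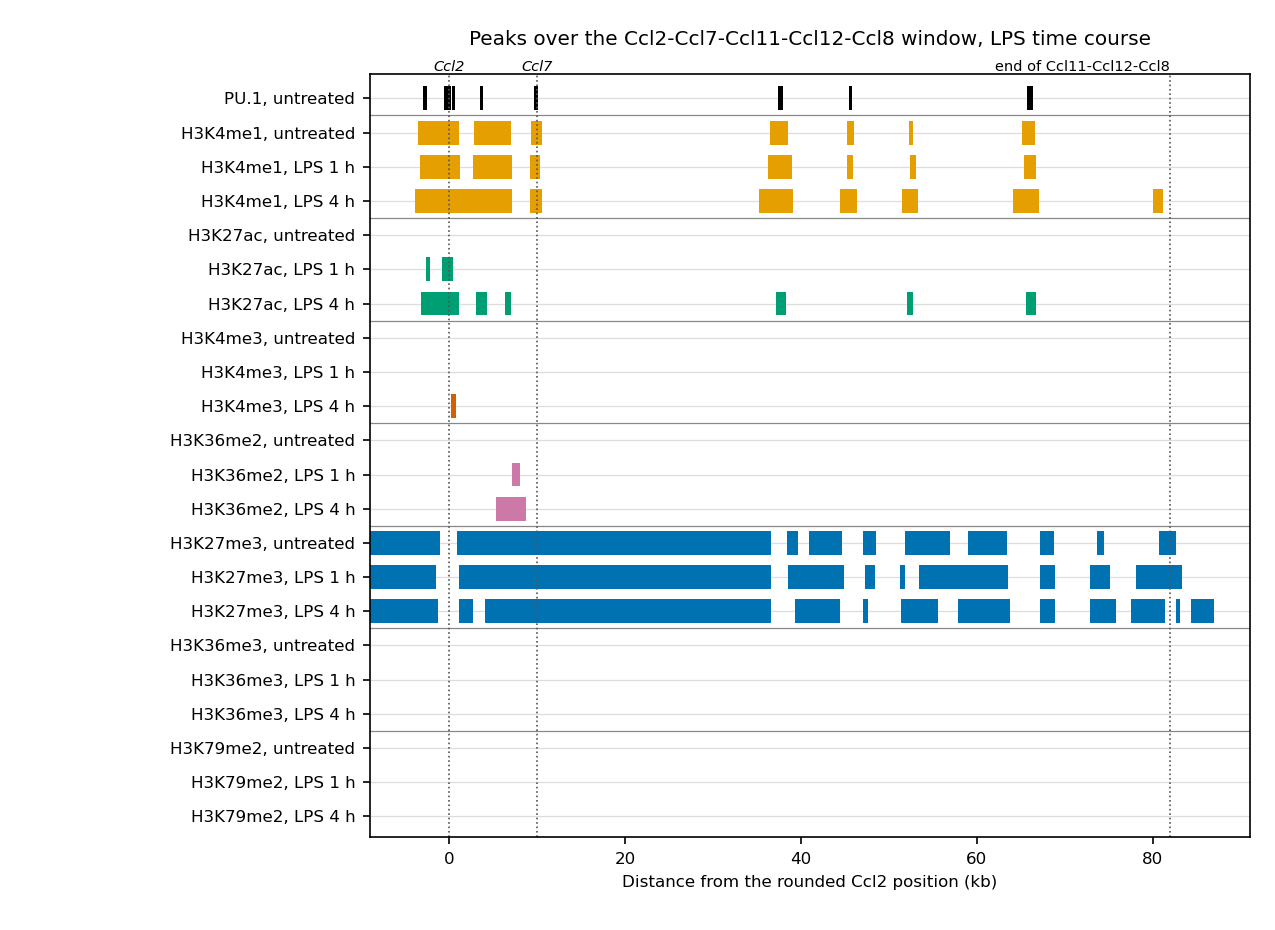
Peaks of PU.1 and of 7 histone marks over the window, by condition. The horizontal axis is the distance in kb from the rounded Ccl2 position, each bar is a peak as deposited, and dotted lines mark the rounded Ccl2 and Ccl7 positions and the end of the run. H3K27ac is absent in untreated cells, has 2 peaks around Ccl2 after 1 h of LPS and 6 peaks after 4 h, while H3K27me3 spans the Ccl7 line in all 3 conditions.

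PU.1 had 8 peaks in the window in untreated cells, against a genome mean of 3.77 per 100 kb. The PU.1 peak with the highest fold enrichment in the authors' deposited values, 22.8 over background, lay at the Ccl2 position (81848462 to 81849236) and was among the top 8.81% of the PU.1 list. Another at 81886370 to 81886996, with its summit 37631 bp past Ccl2, had a fold of 21.2 and was among the top 10.3%. These 2 stood well above the others of the window. The next was at 81846092 to 81846498, before Ccl2 and with its summit at 81846306, with a fold of 10.3. The peak at the Ccl7 position (81858716 to 81859101) had a fold of 6.05, and the one at 81914688 to 81915342 had 5.96. The remaining folds were 5.29 at 81852499 to 81852910, 3.89 at 81894519 to 81894766 and 3.55 at 81849402 to 81849723. All 8 passed a −log10 q of 5 in the authors' values, as did 88.2% of the PU.1 list.

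All 8 PU.1 peaks lay in H3K4me1 in untreated cells, against 69.6% of the whole PU.1 list, and none lay in H3K27ac, against 45.2%. Of the 8, 3 lay in H3K27me3, against 10.8% of the list: the peak before Ccl2, the one at 81852499 and the one at Ccl7. H3K27me3 covered 64.0% of the window, against 13.7% of the genome. The other 5 fell in 4 of the 10 gaps between H3K27me3 peaks of the window, and H3K4me1 reached into the same number of gaps.

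H3K27ac peaks were listed in the cluster after LPS and not before it, at 1 h around Ccl2 and at 4 h also further along the run. Covered length was 0 kb in untreated cells, 1.66 kb at 1 h and 9.28 kb at 4 h, with 0, 2 and 6 peaks. Since untreated cells had no H3K27ac peak here, all of these counted as gained, against 9.05% of the H3K27ac list at 1 h and 21.3% at 4 h. At 1 h the wider peak, 1214 bp at 81848259 to 81849472, covered the Ccl2 position and its strong PU.1 peak. The other, 447 bp at 81846361 to 81846807, overlapped the PU.1 peak before Ccl2. At 4 h a single peak of 4373 bp (81845828 to 81850200) joined both places.

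Beyond that peak, H3K27ac at 4 h lay at 81852089 to 81853291 and at 81855357 to 81856061, both between Ccl2 and Ccl7. It lay at 81886150 to 81887346, over the second strong PU.1 peak, and at 81901052 to 81901718 and 81914626 to 81915755. No H3K27ac peak covered the Ccl7 position at any time. Each of the 6 peaks overlapped a listed H3K4me1 peak of untreated cells, as did 77.4% of the 7402 H3K27ac peaks gained genome-wide at 4 h. At Ccl2 that H3K4me1 peak had a −log10 q of 4.18 in the authors' values, and between Ccl2 and Ccl7 1.62. Neither passed 5, though such values may not describe the intervals of histone peaks. PU.1 lay in 4 of the 6, against 46.4%. Of the 6, 4 overlapped H3K27me3 of untreated cells, against 13.9% of all gained peaks, and 4 overlapped H3K27me3 at 4 h, against 12.3%. H3K27me3 covered 64.0% of the window in untreated cells and 69.2% at 4 h, against 13.7 and 16.1% of the genome. H3K27ac at 1 h was under 1 of the 6, against 25.2%, and H3K4me3 at 4 h under 1, against 11.9%. H3K4me1 overlapped all 6 at 4 h, against 91.4%, and 5 of the 6 with flavopiridol then LPS, against 55.8%.

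Of the 8 PU.1 peaks, 3 lay in H3K27ac at 1 h, against 40.4% of the PU.1 list, and 6 at 4 h, against 45.8%. All 8 lay in H3K4me1 at 1 h, against 67.5%, and at 4 h, against 70.3%. In H3K27me3 lay 3 at 1 h, against 10.3%, and 2 at 4 h, against 11.8%. That mark covered 70.7% of the window at 1 h and 69.2% at 4 h. H3K4me3 at 4 h reached 2 of the 8 PU.1 peaks, both at Ccl2, against 25.7%. The exceptions to H3K27ac at 4 h were the PU.1 peak at Ccl7 and the weak one at 81894519. The H3K27ac gain of the window at 4 h was 9.28 percentage points of its length. Laid end to end over the genome, 353 of 26378 windows of the same length, 1.34%, gained at least as much, and 1.16% gained at least 10 points. The difference of the median window was 0. At 1 h the gain here was 1.66 points. At least as much was gained by 3.25% of windows, and at least 10 points by 0.193%.

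H3K4me3, the mark of active promoters, had no peak in untreated cells or at 1 h and 1 peak at 4 h. That peak was 590 bp wide, at 81849223 to 81849812, and lay just past the rounded Ccl2 position, within the wide H3K27ac peak. Gained peaks were 9.64% of the H3K4me3 list at 4 h. The window gained 0.59 percentage points. At least as much was gained by 8.04% of windows, and at least 10 points by 0.0152%. No other part of the window, the Ccl7 position included, had an H3K4me3 peak in any condition. H3K36me3 and H3K79me2, marks of transcribed gene bodies, had none in the window in untreated cells or after LPS.

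Listed H3K4me1 peaks were wider at 4 h of LPS than in untreated cells, around the islands already listed there. H3K4me1 covered 14.9 kb in untreated cells, 15.5 kb at 1 h and 23.9 kb at 4 h, in 7 peaks each time. In the authors' values the untreated peaks at 81845534, 81851898 and 81858288 had a −log10 q of 4.18, 1.62 and 1.62. With 5 required these drop out, and the 4 h peaks at Ccl2 (22.9) and Ccl7 (25.3) count as gained. The untreated peaks at 81894263, 81901291 and 81914085 then count as lost. Such values may not describe the intervals of histone peaks. The 4 h length was 1.60 times that of untreated cells, while over the genome the ratio was 1.04. Every base under H3K4me1 in untreated cells was still under it at 4 h, and 9.01 kb were added. Such a gain or a larger one was seen in 134 of 26378 windows, 0.508%, and 0.368% gained at least 10 percentage points. At 1 h, 0% of windows gained at least 10 points, and 8.01% gained at least the 0.585 points of this window.

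Joined over the 5 H3K4me1 lists, the islands made 7 places. The first, at 81845192 to 81856225, held Ccl2, and the second, at 81858257 to 81859595, held the Ccl7 position. At the Ccl2 place H3K4me1 covered 8818 bp in untreated cells, 8999 bp at 1 h and 11020 bp at 4 h, when the pair of earlier peaks became 1 peak of 11020 bp. At the Ccl7 place it covered 1272, 1100 and 1339 bp. In covered length the Ccl7 place thus changed little, while the Ccl2 place was wider at 4 h. The authors' values for the Ccl7 peak did differ, with a fold of 1.57, 1.33 and 5.36 along the time course. Its −log10 q was 1.62, 1.26 and 25.3, with the same uncertainty of such values.

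The third place, around the second strong PU.1 peak 37.1 kb past Ccl2, had 2038 bp in untreated cells, 2692 bp at 1 h and 3839 bp at 4 h. The next, 45.5 kb past Ccl2, had 766, 704 and 1946 bp in the same order. The fifth place, 52.4 kb past Ccl2, had 501, 656 and 1767 bp, and the sixth, 65.5 kb past it, 1546, 1375 and 2944 bp. The seventh place, at 81929024 to 81930116, was the only peak counted as gained at 4 h, 1 of 7 in the window against 15.0% of the H3K4me1 list. It had no PU.1 peak, and H3K27me3 covered it to 34.9% in untreated cells and wholly at 1 h and 4 h. None of the 7 peaks was gained at 1 h, against 7.27% of the list. No untreated peak of the window was lost, while over the untreated list 10.7% were lost at 1 h and 6.55% at 4 h.

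**Figure D2:**
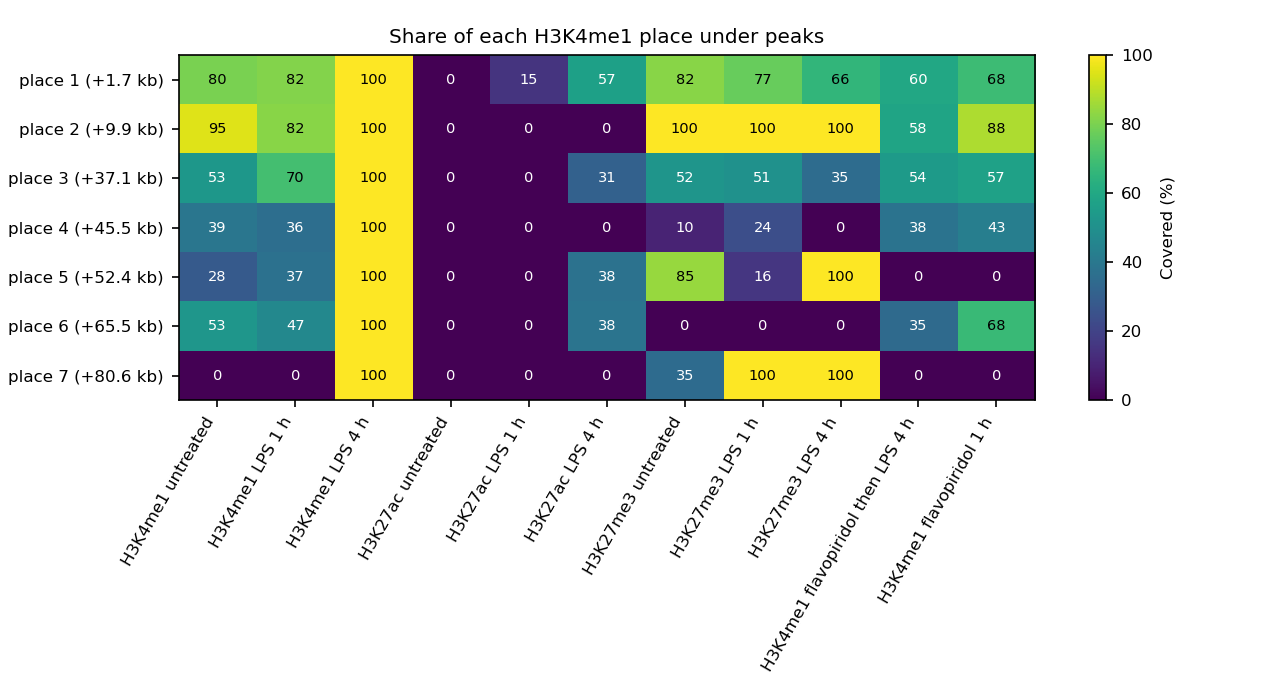
Share of each H3K4me1 place under peaks, in percent, with places in rows by the distance of their midpoint from the rounded Ccl2 position and lists in columns. At 4 h H3K27ac covers 57% of the Ccl2 place and 31 to 38% of the third place, the one 52.4 kb past Ccl2 and the sixth, and none of the second place, at Ccl7, where H3K27me3 covers 100% in all 3 conditions.

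H3K27me3 was over most of the cluster after LPS too, with a different outline at Ccl2. In the authors' values none of its peaks here passed a −log10 q of 5 in any condition, against 11.7 to 12.4% of each list. The deposited values of histone peaks hardly followed peak width, so it is uncertain how far they describe the interval they stand beside. It covered 63.97 kb in untreated cells, 70.7 kb at 1 h and 69.2 kb at 4 h, with a ratio to untreated length of 1.11 at 1 h and 1.08 at 4 h. Over the genome the ratios were 1.05 at 1 h and 1.17 at 4 h. No H3K27me3 peak of untreated cells was lost, against 13.6% of the list at 1 h and 9.43% at 4 h, and 0 of 9 counted as gained at 1 h, against 18%. At 4 h 1 of 12 was gained, at 81933391 to 81935987, against 28.2%. Windows that gained at least 10 percentage points were 1.38% of all at 1 h and 8.09% at 4 h, and this one gained 6.72 and 5.25 points. At least as much H3K27me3 was gained by 4.18% of windows at 1 h and 17.9% at 4 h. In the 10 kb around Ccl2 untreated cells had 8.02 kb of it, with 7.44 kb at 1 h and 6.22 kb at 4 h. In the next 10 kb, around Ccl7, it was complete each time. In the 76 kb beyond, it was 41.9, 49.2 and 49.0 kb. The mark thus covered less length around Ccl2 at 4 h while it covered more in the 76 kb beyond Ccl7.

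The gap in H3K27me3 at the Ccl2 position measured 1976 bp before LPS, 2559 bp after 1 h of it and 2389 bp after 4 h. At 4 h a second gap of 1393 bp stood open at 81851728 to 81853120, inside what had been the 35599 bp peak. It held the PU.1 peak at 81852499 and 1032 bp of H3K27ac. H3K27me3 and H3K27ac nevertheless overlapped in the 4 h lists: 3.53 kb of H3K27ac, 38.0% of its length in the window, also lay under H3K27me3, against 1.35% over the genome. The part of H3K4me1 that lay under H3K27me3 was 59.1, 53.7 and 53.4% along the time course, against 5.56, 5.57 and 7.65% over the genome. Of the window itself H3K27me3 covered 64.0, 70.7 and 69.2% in the same order. These window shares were above those of H3K4me1 and, at 4 h, above that of H3K27ac. These lists come from separate immunoprecipitations of many cells, so shared length does not show that both marks sit on the same copy of the locus.

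H3K36me2 was listed between Ccl2 and Ccl7 after LPS. It had no peak in untreated cells, 1 of 872 bp at 1 h (81856203 to 81857074) and 1 of 3491 bp at 4 h (81854319 to 81857809). The 4 h peak contained the 1 h peak and the H3K27ac peak at 81855357, and lay inside H3K27me3. Neither passed a −log10 q of 5 in the authors' values, where 22.6% of the list at 1 h and 32.5% at 4 h did, with the same uncertainty as for H3K27me3. Gained peaks were 20.4% of the H3K36me2 list at 1 h and 25.2% at 4 h, and the window's gain of 3.49 percentage points stood beside a genome mean of 2.57. Windows that gained at least 10 points were 3.5% of all at 1 h and 9.61% at 4 h.

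**Figure D3:**
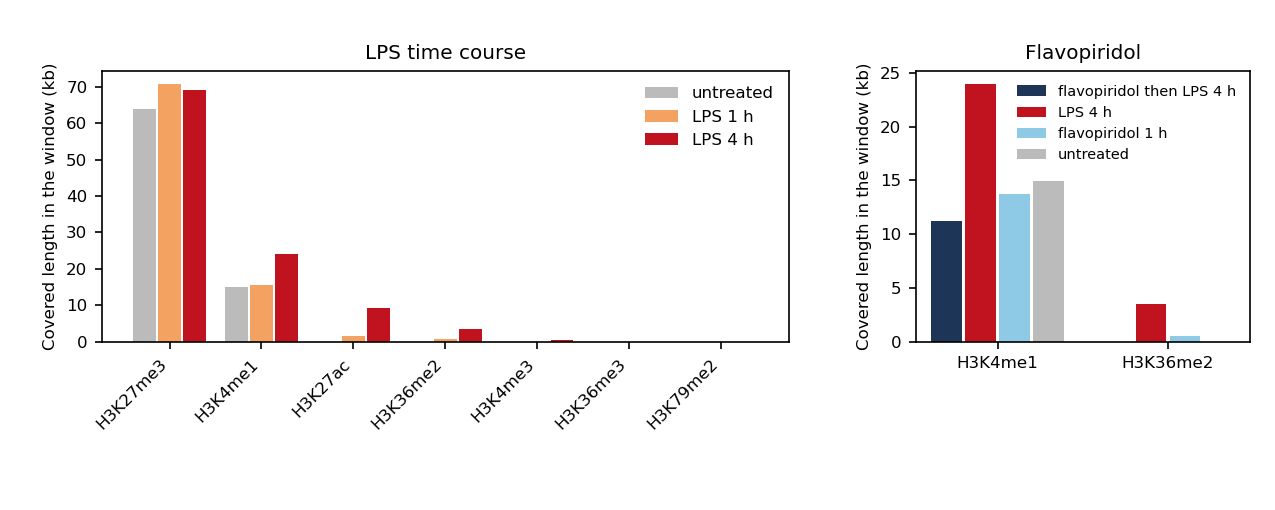
Length of the window under peaks in kb, by mark and condition, with 1 library per bar and the vertical axis starting at 0; the left panel shows the LPS time course and the right panel flavopiridol. H3K27ac is at 0, 1.66 and 9.28 kb along the time course, and H3K4me1 is at 11.2 kb with flavopiridol then LPS, against 23.9 kb with LPS alone.

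With flavopiridol before LPS, H3K4me1 covered 11.2 kb of the window, against 23.9 kb with LPS alone, a ratio of 0.469. Over the genome the ratio of the same lists was 0.585. Every base under H3K4me1 with flavopiridol and LPS was also under it with LPS alone, and a further 12.7 kb were under it with LPS alone. Windows lower by at least 10 percentage points, as this one was, were 12.0% of all. In the flavopiridol then LPS list, 4.02% of peaks passed a −log10 q of 5, against 53.0% with LPS alone, and the part of this in the shorter length was not tested.

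The place with Ccl2 had 6608 bp of H3K4me1 with flavopiridol then LPS, in 3 separate peaks, against 11020 bp in 1 peak with LPS alone. The Ccl7 place had 781 bp with flavopiridol then LPS and 1339 bp with LPS alone. The places 37.1, 45.5 and 65.5 kb past Ccl2 had 2089, 738 and 1018 bp with flavopiridol then LPS, against 3839, 1946 and 2944 bp with LPS alone. H3K4me1 was thus shorter at each of the 7 places. Lost altogether were the peaks at 81900517 to 81902283 and at 81929024 to 81930116, 2 of 7, against 33.9% of the LPS 4 h list, and none of the 7 peaks with flavopiridol then LPS was gained, against 11.4%. Neither of these places had a PU.1 peak, and the 5 others that kept H3K4me1 had at least 1 each. The first of the 2 also had no H3K4me1 with flavopiridol alone, and the second had it in the LPS 4 h list only. Whether the loss goes with the absence of PU.1 was not tested. All 8 PU.1 peaks remained within H3K4me1 with flavopiridol, against 65.6% of the PU.1 list, and with flavopiridol then LPS, against 58.4%.

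With flavopiridol alone, H3K4me1 covered 13.8 kb, against 14.9 kb in untreated cells, a ratio of 0.921 where the genome had 0.748. In the flavopiridol list 12.8% of peaks passed a −log10 q of 5, against 54.4% in untreated cells. The one peak lost was at 81901291 to 81901791, 1 of 7, against 20.9% of the untreated list, and none was gained, against 14.2%. Windows lower by at least 10 percentage points were 6.91% of all. This one was lower by 1.18, and 28.4% of windows were lower by at least as much. At the Ccl2 place H3K4me1 covered 7549 bp with flavopiridol, against 8818 bp in untreated cells. Set against flavopiridol alone, flavopiridol then LPS had 11.2 kb against 13.8 kb, a ratio of 0.816, beside 0.816 over the genome. No peak was gained or lost in that comparison, against 11% and 21.8%. The window was lower by 2.525 points, 16.3% of windows were lower by at least as much, and 0.933% by at least 10 points. LPS without the drug had gone with a longer H3K4me1 in the window, 23.9 kb against 14.9 kb in untreated cells.

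H3K36me2 with flavopiridol then LPS had no peak in the window, against the 3491 bp peak with LPS alone. Lost peaks were 33.8% of the LPS 4 h list in that comparison, and 17.1% of windows were lower by at least 10 percentage points. With flavopiridol alone it had 1 peak of 524 bp, at 81849996 to 81850519 just past Ccl2, against none in untreated cells. Gained peaks were 28.7% of the flavopiridol list and windows higher by at least 10 points 7.39% of all. That peak was not in the list of flavopiridol then LPS, where 29.3% of the flavopiridol peaks were lost and 11.5% of windows were lower by at least 10 points. In the H3K36me2 list of flavopiridol then LPS, 0.0390% of peaks passed a −log10 q of 5, against 32.5% with LPS alone. With flavopiridol alone the share was 0.197%, against 9.02% in untreated cells.

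**Figure D4:**
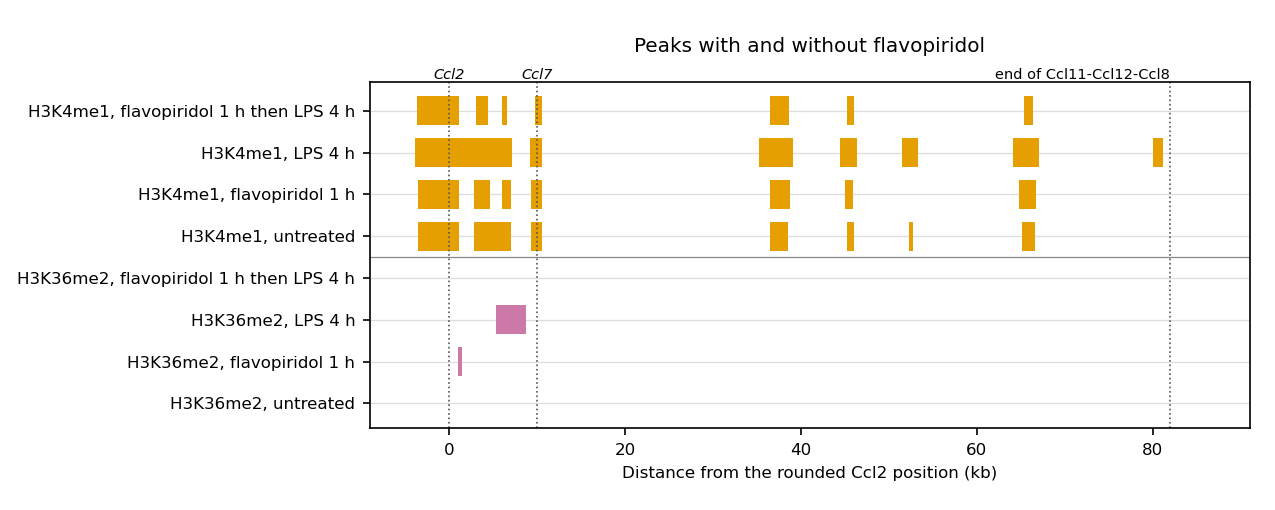
Peaks of H3K4me1 and H3K36me2 with and without flavopiridol, by distance in kb from the rounded Ccl2 position, each bar a peak as deposited. The single H3K4me1 peak around Ccl2 with LPS alone is 3 peaks with flavopiridol then LPS, and the places 52.4 and 80.6 kb past Ccl2 have a peak with LPS alone and none with flavopiridol then LPS.

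The authors' segmentations with 27 chromatin states gave each 200 bp step of the genome 1 state. State contents were read from the peak lists of the same condition. In untreated cells, state 19 (H3K27me3 over 95.7% of its length) filled 48.4% of the window, and state 27 (hardly any mark) 40.6%. State 16 (H3K4me1 over 98.1%) filled 7.4%, and state 18, in which H3K4me1 (83.4%) and H3K27me3 (96.4%) met, 3.6%. State 18 made up 0.139% of the genome. States and peak lists differed here, since state 27 had H3K27me3 over 4.38% of its length, while H3K27me3 peaks covered 64.0% of the window. The Ccl7 position lay under H3K27me3 peaks in untreated cells and at 1 h, but in state 16. Genome-wide H3K27me3 covered 5.58% of that state in untreated cells and 4.74% at 1 h.

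At 4 h, state 17, with H3K4me1 over 99.9% and H3K27ac over 98.7% of its length, filled 4.8 kb of the window, after 0.4 kb at 1 h and none in untreated cells. It took over 2.8 kb from state 16 and 1.8 kb from state 18, the joint H3K4me1 and H3K27me3 state. State 24, with H3K4me3 over 92.9%, held 0.4 kb, in steps at 81849401 to 81849600 and 81849801 to 81850000. Directly after it, state 26 held 1.6 kb at 81850001 to 81851600. Genome-wide this state had H3K36me2 over 65.0% and H3K36me3 over 33.1% of its length, but the 4 h lists had neither mark in this stretch. It lay instead under the wide H3K4me1 peak and mostly under an H3K27me3 peak (81850163 to 81851727). Those marks covered 7.90 and 2.24% of state 26 genome-wide, so state and peaks differed here. In all, 22.6 kb of the window were in another state at 1 h than in untreated cells and 28.2 kb at 4 h, or 22.6 and 28.2% of its steps. Over the genome 11% of steps differed at 1 h and 12.2% at 4 h.

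**Figure D5:**
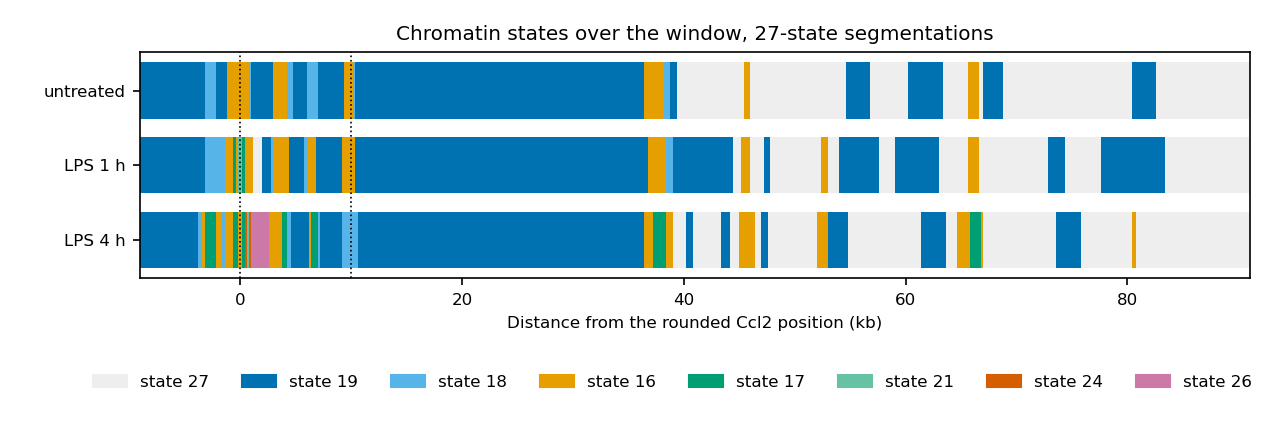
Chromatin state of each 200 bp step of the window in untreated cells and after 1 h and 4 h of LPS, by distance in kb from the rounded Ccl2 position; dotted lines mark Ccl2 and Ccl7. State 19 carries H3K27me3, 18 H3K4me1 with H3K27me3, 16 H3K4me1, 17 and 21 H3K4me1 with H3K27ac, 24 H3K4me3 with H3K27ac, 26 H3K36me2, and 27 hardly any mark. State 17 holds 0.4 kb at 1 h and 4.8 kb at 4 h, and the Ccl7 line lies in state 16, 16 and 18 along the time course.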

How the data were processed

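Per the submitters' processing notes, alignment was to mm9 by Bowtie 1.0.1 and peak calling by MACS2. Not given in the sources used here: MACS2 settings, control library, pooling, read numbers. The authors deposited for each peak a fold enrichment, which is a ratio over background, a −log10 p, a −log10 q and a score, which is 10 times the −log10 q cut to a whole number. Repeated PU.1 lines were counted once (99565 peaks), and chromosomes 1 to 19 and X were used.

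Covered length was summed after clipping at the window's ends. A peak was gained or lost where no peak of the other list shared 1 bp. The same coverage in 26378 adjacent windows of 100 kb served as background, with a call at 10 percentage points. Over each histone list, the Spearman rho of peak width with fold enrichment was 0.0261 to 0.0883, against 0.791 for PU.1, so folds and q values of histone peaks may not describe their intervals and were not used to rank them. The interval functions were tested on simulated lists. Alternatives were a −log10 q of at least 5, 50% overlap, gaps of 1 kb joined and segments of at least 400 bp. The text names every gained or lost peak, the widest peaks and all PU.1 peaks of the window. The members and comparisons were chosen with earlier results of these data known. The planned list of other chemokine genes was not run, since no mm9 gene model was used here. Promoters came from RefSeq (GRCm38.p6), with 2 of 5 genes matched. Python 3.11.15, numpy 2.4.6, pandas 2.3.3, scipy 1.17.1 and matplotlib 3.10.9 were used.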

Additional observations from a re-analysis of the deposited data

Results flagged for a closer look

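The LPS difference had opposite signs with and without flavopiridol for both marks that have lists of each, in the window and also over the genome. H3K4me1 covered length differed by −2.525 kb between flavopiridol then LPS and flavopiridol alone, and by 9.007 kb between LPS 4 h and untreated cells. H3K36me2 differed by −0.524 kb with the drug, where 1 peak was lost, and by 3.491 kb without it, where 1 peak was gained. Over all windows the mean H3K4me1 difference was −1.004 percentage points with the drug and 0.313 without it, and the mean H3K36me2 difference −2.83 with it and 2.57 without it. Of the H3K36me2 lists, 29.3% of peaks were lost with the drug and 25.2% gained without it. With 1 library per condition, neither difference between the responses was tested.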

How the results depend on the processing

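Joining peaks across 1 kb could change no coverage, since the smallest gap between histone peaks of the window was 1206 bp. With segments of at least 400 bp, the steps in another state became 21.7% at 1 h and 26.9% at 4 h. Restricting the lists to −log10 q values from 5 upward, every H3K27me3 and H3K36me2 coverage difference became 0, with LPS at 1 h and 4 h and, for H3K36me2, in each flavopiridol comparison. H3K4me1 became 9.575 points at 1 h and 12.4 at 4 h, and with flavopiridol then LPS −16.5 points against LPS. At that threshold the gained counts against untreated cells became 2 (H3K4me1, 1 h), 3 (H3K4me1, 4 h), 1 (H3K27ac, 1 h), 0 (H3K36me2, 1 h, 4 h and flavopiridol), 0 (H3K27me3, 4 h) and 1 (H3K4me1, flavopiridol), and lost H3K4me1 counts became 3 at 4 h and 3 with flavopiridol. For flavopiridol then LPS against flavopiridol, H3K4me1 gained 1 and lost 2 and H3K36me2 lost 0, and against LPS H3K36me2 lost 0. With 50% overlap required, H3K4me1 gained 3 at 4 h and lost 4 with flavopiridol then LPS against LPS, while for H3K27me3 the 1 h gains became 3, the 4 h gains 4 and the 4 h losses 3. The gained counts at 4 h of H3K27ac, 6, and of H3K4me3, 1, held with the q threshold, though q values of histone peaks may not describe their intervals. The 50% overlap rule could not change them, since untreated cells had no peak of either mark in the window. The PU.1 count of 8 held with the q threshold, the one alternative run for it. The cause was not tested. Read depth, which is unknown, limits every absence of a peak.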

Other observations

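The segmentation with 18 states, which the labels of the H3K27me3 and H3K27ac samples do not list, showed the window differently. Its state 18, in which H3K27me3 peaks of untreated cells covered 22.5% and every other mark 2.0% or less, filled 87.2% of the window, and its H3K4me1 state 13 filled 10.4%.

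Windows of 100 kb with H3K27me3 over at least 50% of their length in untreated cells numbered 2555. Of these, 34 (1.33%) gained at least as much H3K27ac at 4 h as the Ccl2 and Ccl7 window, against 353 of all 26378 windows (1.34%). This comparison was chosen after the values were seen. An H3K27ac gain of at least 5 percentage points was found in 3.29% of the 2555 windows and in 3.34% of all windows.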
